A study of Schizosaccharomyces pombe with 9 samples.

Results

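One end of chromosome II of the fission yeast Schizosaccharomyces pombe is described here through 46 genes of the 5129 in the count table. They are the genes whose identifiers start with SPBC1348, SPBPB8B6, SPBPB21E7, SPBPB10D8, SPBC359 or SPBC1683, the names of the sequenced clones that cover this end, apart from 5 genes left out by the rule (SPBC1348.14c, SPBC359.04c, SPBC1683.07, SPBC1683.08 and SPBC1683.09c). In the reference annotation all 46 lie on chromosome II, at places 1 to 51 of its protein-coding genes counted from the end, so the label of a chromosome end holds. The study sequenced 9 RNA libraries, 3 replicates for each of 3 genotypes: wild type (WT), tra1D, a deletion of tra1, and tra1-AA, a tra1 allele whose sequence change the labels leave undescribed. All cultures were grown in the rich medium YES to mid-log phase, and their RNA was selected for poly(A) tails. Every genotype has a single strain number, so strain background and genotype cannot be told apart. The titles of WT and tra1D also carry a re-analysis mark that those of tra1-AA lack.

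Tra1 is a large pseudokinase that serves as a docking surface for transcription factors within SAGA, a co-activator complex that modifies histones and helps load the TATA-binding protein at promoters. Chromosome ends of fission yeast are packed in heterochromatin next to the telomere, and further in lie subtelomeric genes, many of them poorly transcribed in growing cells and rich in transporters and enzymes for the use of nutrients. Several stretches are repeated almost letter for letter between the ends of different chromosomes, which makes single copies hard to read with short reads.

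Library totals ran from 5738138 to 8101004 counts, and 1 count equalled 0.126 to 0.168 CPM, the count scaled to library size with edgeR's composition factors. Where no read was counted, up to 3 counts (0.379 to 0.503 CPM, depending on the library) may have been missed, by counting error alone. The tra1 transcript itself checked the labels, with 561 to 771 counts in WT, 2 to 5 in tra1D and 470 to 608 in tra1-AA. The labels do not say whether replicates were separate cultures, so p-values measure the spread between these libraries, which may be technical.

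The stretches in front of the genes that changed most differ from each other, and the stretch in front of the tandem genes SPBPB10D8.04c to SPBPB10D8.07c does not differ among them at all. The sequences below are the 250 bases before the annotated transcript start, read 5′ to 3′ on the strand of each gene, from chromosome II of the RefSeq assembly ASM294v3. SPBPB10D8.01 and pho841 lie on its plus strand and the others on its minus strand. They show the promoters of the neighbours SPBPB10D8.01 and SPBPB10D8.02c, of grt1 and of pho841, which were lower in both mutants, and the shared stretch of the tandem genes as an example of repeated sequence at this end. Capitals mark TATAAA, the core of the TATA box, and AGATAA, a form of the GATA motif, each on either strand.
SPBPB10D8.01: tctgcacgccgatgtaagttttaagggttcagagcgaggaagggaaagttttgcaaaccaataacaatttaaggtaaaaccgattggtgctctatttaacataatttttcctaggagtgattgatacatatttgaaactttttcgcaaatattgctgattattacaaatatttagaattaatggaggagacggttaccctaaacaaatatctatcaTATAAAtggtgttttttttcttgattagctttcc
SPBPB10D8.02c: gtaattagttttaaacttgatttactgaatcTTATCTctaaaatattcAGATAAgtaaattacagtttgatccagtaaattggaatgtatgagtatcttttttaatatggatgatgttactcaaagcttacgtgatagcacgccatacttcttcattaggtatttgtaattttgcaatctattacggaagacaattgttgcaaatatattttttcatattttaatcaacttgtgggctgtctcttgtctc
grt1: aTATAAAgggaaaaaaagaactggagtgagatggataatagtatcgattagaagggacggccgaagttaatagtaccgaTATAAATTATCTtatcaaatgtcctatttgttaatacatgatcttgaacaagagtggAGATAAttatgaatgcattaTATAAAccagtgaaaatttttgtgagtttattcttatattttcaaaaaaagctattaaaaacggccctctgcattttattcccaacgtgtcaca
pho841: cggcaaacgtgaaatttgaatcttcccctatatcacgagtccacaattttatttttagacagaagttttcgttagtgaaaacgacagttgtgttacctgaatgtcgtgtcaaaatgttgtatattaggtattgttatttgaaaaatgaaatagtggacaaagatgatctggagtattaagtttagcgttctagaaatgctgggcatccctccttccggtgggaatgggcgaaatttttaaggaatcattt
SPBPB10D8.05c: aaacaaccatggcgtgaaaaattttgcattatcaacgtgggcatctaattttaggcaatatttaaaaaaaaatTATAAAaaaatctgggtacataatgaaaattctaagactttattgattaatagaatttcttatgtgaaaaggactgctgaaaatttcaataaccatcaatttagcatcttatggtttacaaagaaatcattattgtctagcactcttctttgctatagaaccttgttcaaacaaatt

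SPBPB10D8.01 held TATAAA at position -34, counted back from the transcript start, while SPBPB10D8.02c and pho841 held none in this window. The window of grt1 held TATAAA at 3 places and that of SPBPB10D8.02c held AGATAA once on each strand. TATAAA was found in 30 of the 46 member windows (65.2%) and in 44.3% of 5110 windows of protein-coding genes, both strands counted. AGATAA was found in 11 of 46 (23.9%) against 21.9% of all. Since 4 of the member windows, those of SPBPB10D8.04c to SPBPB10D8.07c, are copies of a single sequence, they are not independent, and a match describes letters only. The windows of SPBPB21E7.02c and SPBPB21E7.10 also overlap, as do those of icl1 and SPBC1683.12. Each of these pairs holds shared sites read from opposite strands, which were counted for both genes.

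The outermost genes could hardly be read. From SPBC1348.15 to SPBC1348.10c, 11 genes in a row summed to 24 counts over the 9 libraries, and SPBC1348.07 and SPBC1348.08c held most of them. SPBC1348.07 had counts of 0, 0 and 2 for WT, of 0, 3 and 4 for tra1D, and none for tra1-AA. SPBC1348.08c had counts of 1, 5 and 0 for WT, of 3, 0 and 3 for tra1D, and of 0, 1 and 0 for tra1-AA. ftm5 (SPBC1348.02) and SPBC1348.05, annotated as a transmembrane helix protein and a transporter, had 1 count each, both in a tra1-AA library.

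Most of this sequence is not unique. Of the 50-base words in a member's annotated transcript, the length of the reads, at most 15.6% occurred once in the reference genome in each of these 11 genes, and the share was 0 in SPBC1348.15, ftm5, SPBC1348.04, SPBC1348.06c and SPBC1348.09. Every word of SPBC1348.06c recurred in SPBPB2B2.15 at the other end of chromosome II, and every word of SPBC1348.09 in SPAC977.08 on chromosome I. SPBPB10D8.05c, SPBPB10D8.06c and SPBPB10D8.07c, which encode transporters, also had no unique word and no count, and SPBPB10D8.04c, the first of the tandem, had 18.1% unique words and 3 to 13 counts per library. The sources used here do not give how the authors counted reads that align to several places, so a count of 0 in these genes does not show that they were silent.

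Unique sequence and low counts also occurred together. SPBPB21E7.02c, SPBPB21E7.05 and SPBPB21E7.10 had unique words throughout (100%) but did not pass the filter on low counts, with 7, 0 and 1 counts over all libraries. In all, 29 of 46 members passed the filter and 17 did not, 11 of them with 0 counts throughout. Among 15 members with under 20% unique words 14 did not pass, and among 28 members with over 90% unique words 25 passed. A further 3 members, SPBPB8B6.05c, fex2 (SPBPB8B6.06c) and SPBPB21E7.09, passed with 26.7%, 25.8% and 41.7% unique words. Their copies are SPAC977.12, SPAC977.11 and SPAC186.03 on chromosome I, so their values are uncertain.

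**Figure D1:**
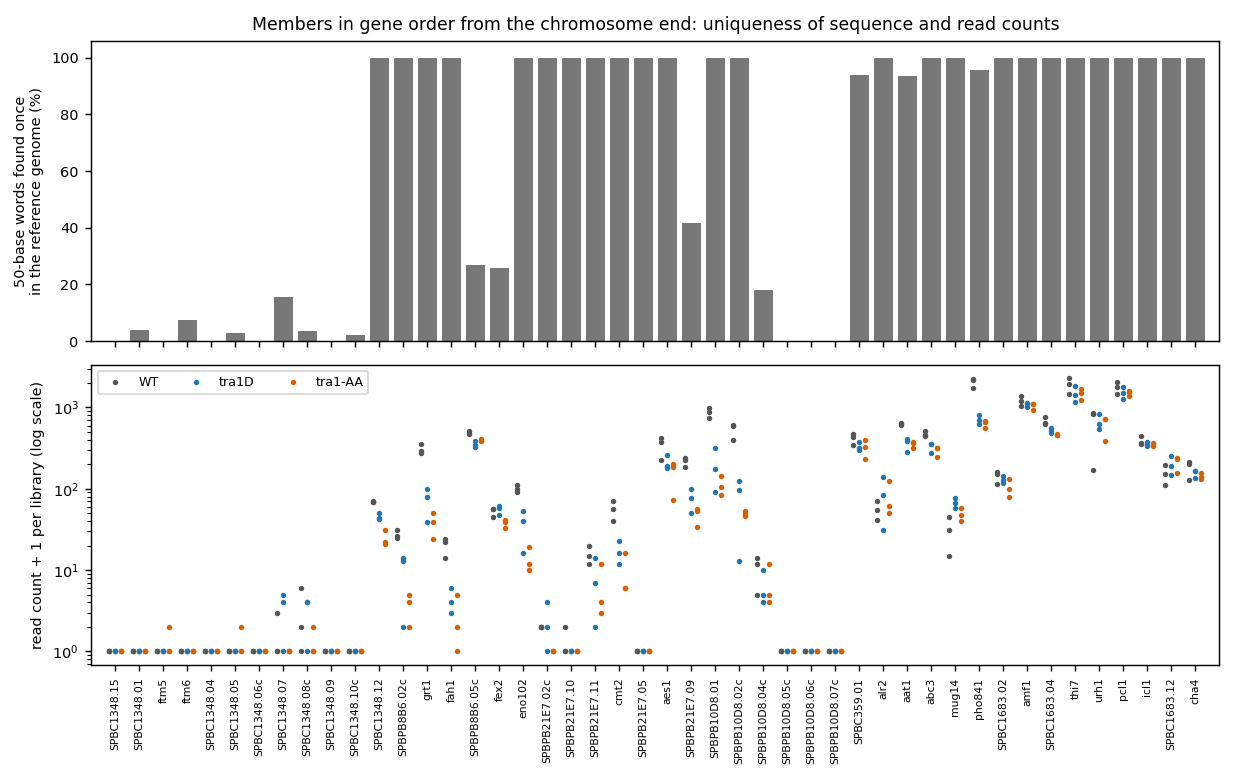
The upper panel gives, for the 46 members in gene order from the chromosome end, the percentage of 50-base words found once in the reference genome, and the lower panel the read count plus 1 in each of the 9 libraries on a log scale. The 11 outermost genes and the tandem SPBPB10D8.05c to SPBPB10D8.07c have few or no unique words and few or no counts.

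Among the genes that could be read, many of those in the clones next to the repeated stretch were lower in the mutants. In tra1-AA 14 of 29 tested members fell and none rose (edgeR quasi-likelihood test, Benjamini-Hochberg adjusted p under 0.05), beside 7.96% of all 4913 tested genes that fell and 7.94% that rose. In tra1D 10 members fell and 1 rose, beside 6.35% and 5.17% of all genes. The median log2 fold change of the tested members was -0.57 in tra1-AA and -0.44 in tra1D, and that of all tested genes was 0.006 and 0.004. Both comparisons use the same WT libraries, and in RNA from whole cultures fewer expressing cells and less RNA per cell cannot be told apart. The CPM values of the groups did not overlap for 18 members lower in tra1-AA, beside 14.9% of all genes, and for 14 members lower in tra1D, beside 15.1%. Members called lower in both mutants numbered 9. The same share over all tested genes was not counted, so this number is a description only. Among the members that fell, fah1 and SPBPB8B6.02c passed the filter on low counts only because of their WT libraries, which favours a fall. With the replicate number as a block, 1 member rose in tra1-AA in place of none. The main fit did not use the replicate number. Same-numbered WT and tra1-AA libraries deviated alike to a small degree, which does not establish that they were paired. A paired fit of those groups alone, chosen after seeing the data, gave 16 members that fell and 1 that rose.

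The falls were unevenly placed. In the middle clones SPBPB8B6, SPBPB21E7 and SPBPB10D8, 9 of 13 tested genes fell in tra1-AA and 8 of 13 in tra1D, with medians of -2.65 and -1.45. These counts include fah1 in both mutants and SPBPB8B6.02c in tra1-AA. Both genes passed the filter only because of their WT libraries, which favours a fall, and they also enter the medians and shares. In the inner clones SPBC359 and SPBC1683, 4 of 15 fell in tra1-AA and 2 of 15 in tra1D, where 1 also rose, with medians of -0.29 and -0.14. The shares that fell were 69.2% and 61.5% in the middle clones and 26.7% and 13.3% in the inner ones, beside 7.96% and 6.35% of all tested genes. The share that rose in tra1D in the inner clones was 6.67%, beside 5.17% of all. The inner counts in tra1D rest on few genes, and no test against all genes was made. This division by clones was made with earlier results known and is given as a description. Of the 19 members in the middle clones 6 were not tested, whereas every member of the inner clones was.

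**Figure D2:**
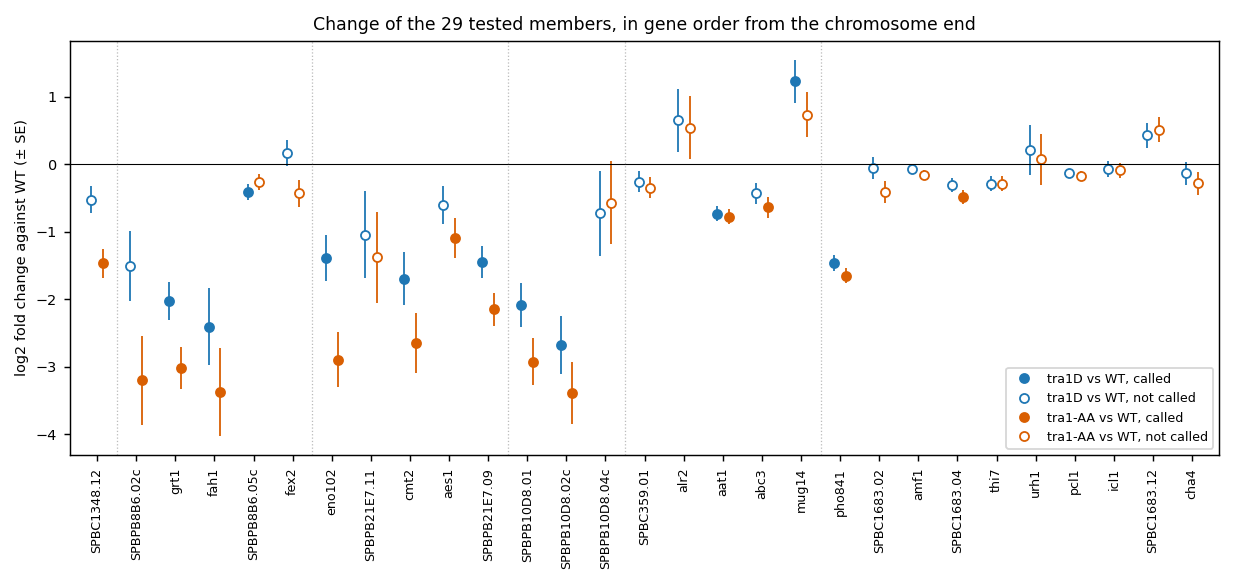
Log2 fold change against WT with its standard error for the 29 tested members, in gene order from the chromosome end, with filled points for genes called at an adjusted p under 0.05 and dotted lines between clones. The lowest points, below -2, are genes of SPBPB8B6, SPBPB21E7 and SPBPB10D8, and pho841 is the lowest of the inner genes.

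The pair SPBPB10D8.01 and SPBPB10D8.02c, at places 27 and 28, included the member with the lowest log2 fold change in both mutants, SPBPB10D8.02c. SPBPB10D8.01 encodes a cysteine transporter and SPBPB10D8.02c an arylsulfatase, an enzyme that releases sulfate from organic esters, so both concern the supply of sulfur. SPBPB10D8.01 had 124, 99.9 and 139 CPM in WT replicates 1 to 3, 45.6, 11.5 and 29.3 CPM in tra1D, and 15, 19.9 and 12.6 CPM in tra1-AA. No mutant library reached the lowest WT library. SPBPB10D8.01 fell 7.61-fold in tra1-AA (log2 fold change -2.93, SE 0.35, edgeR, adjusted p = 0.00023) and 4.23-fold in tra1D (-2.08, SE 0.33, edgeR, adjusted p = 0.00188).

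SPBPB10D8.02c had 75.4, 82.4 and 63.4 CPM in WT, 17.7, 1.55 and 16.1 CPM in tra1D, and 6.87, 7.41 and 6.76 CPM in tra1-AA. The tra1-AA libraries lay close together, while tra1D replicate 2 stood well below the other tra1D libraries. The gene fell 10.5-fold in tra1-AA (log2 fold change -3.39, SE 0.46, edgeR, adjusted p = 0.00058) and 6.43-fold in tra1D (-2.69, SE 0.43, edgeR, adjusted p = 0.00217). These neighbours are transcribed towards each other and their annotated transcripts overlap by 129 bases on opposite strands (5.51% and 5.63% of their spans). The strand setting of the counting is not given in the sources used here, and reads in that overlap cannot be assigned without it.

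The transcription factor genes of this end were SPBC1348.12, grt1 (SPBPB8B6.04c) and cha4 (SPBC1683.13c). grt1 had 44.7, 40.1 and 43.9 CPM in WT, 14.1, 4.92 and 13.1 CPM in tra1D, and 5.44, 6.85 and 3.46 CPM in tra1-AA. The WT libraries lay close together, and the highest mutant library was far below the lowest of them. It fell 8.10-fold in tra1-AA (log2 fold change -3.02, SE 0.31, edgeR, adjusted p = 9.85e-05) and 4.07-fold in tra1D (-2.03, SE 0.28, edgeR, adjusted p = 0.000852). SPBC1348.12, the outermost gene with fully unique sequence, had 8.58, 9.41 and 10.6 CPM in WT, 7.26, 5.57 and 7.04 CPM in tra1D, and 4.30, 2.94 and 3.01 CPM in tra1-AA, so that the 3 groups did not overlap. It fell 2.77-fold in tra1-AA (edgeR, adjusted p = 0.00118), and its log2 fold change in tra1D was -0.53 (edgeR, adjusted p = 0.115). cha4, at the inner limit of the stretch, did not pass in either mutant (-0.29 and -0.14).

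Genes for the use of nitrogen compounds lay on both sides of grt1. SPBPB8B6.02c encodes a urea transporter, fah1 (SPBPB8B6.03) an acetamidase, an enzyme that releases ammonia from amides, and SPBPB8B6.05c and SPBPB21E7.09 encode L-asparaginases, which release ammonia from asparagine. SPBPB8B6.02c had 3.03, 3.41 and 4.75 CPM in WT, 1.89, 0.129 and 2.01 CPM in tra1D, and 0.573, 0.419 and 0.150 CPM in tra1-AA. It fell in tra1-AA (edgeR, adjusted p = 0.00772), where 79 WT counts stood against 8, a normalised ratio of 9.52 (exact 95% counting interval 4.60 to 22.8). Its log2 fold change in tra1D was -1.52 (edgeR, adjusted p = 0.0829), and -0.92 without tra1D replicate 2. fah1 had counts of 13, 21 and 23 for WT, of 5, 2 and 3 for tra1D, and of 1, 4 and 0 for tra1-AA, where the count of 0 allows up to 0.451 CPM.

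The ratio of WT to mutant for fah1 was 11 in tra1-AA (exact 95% counting interval 4.44 to 35.1) and 5.44 in tra1D (2.75 to 11.9), and both falls passed (edgeR, adjusted p = 0.00598 and 0.0193). No mutant library held more than 5 counts of fah1, so the gene passed the filter, with its minimum count of 10, through WT alone. The fall of fah1 in tra1D was lost without tra1D replicate 2 or 3 (edgeR, adjusted p = 0.0865 and 0.0586), and its log2 fold change in tra1-AA, -3.38, was -4.89 without tra1-AA replicate 2. fah1 lies wholly within the span of grt1 on the opposite strand (100% of its length), so its few counts cannot be told apart from those of grt1 unless strand was used.

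SPBPB21E7.09 had 30, 31.0 and 29.5 CPM in WT, 14.1, 6.47 and 12.9 CPM in tra1D, and 7.88, 7.41 and 4.96 CPM in tra1-AA. Its WT libraries were nearly level, and no mutant library came near them. SPBPB21E7.09 fell 4.45-fold in tra1-AA (log2 fold change -2.15, SE 0.25, edgeR, adjusted p = 0.0002) and 2.73-fold in tra1D (-1.45, SE 0.23, edgeR, adjusted p = 0.00225). Of its 50-base words 58.3% recur in SPAC186.03 on chromosome I, and how far the fall belongs to that copy was not tested. The other asparaginase gene, SPBPB8B6.05c, was at 61.1 to 80.5 CPM in WT, 46.6 to 57.2 CPM in tra1D and 54.7 to 60.7 CPM in tra1-AA. It fell 1.33-fold in tra1D (edgeR, adjusted p = 0.0394) and stood at -0.27 (log2) in tra1-AA (edgeR, adjusted p = 0.139). That call was lost without WT replicate 3, tra1D replicate 1, tra1D replicate 2 or tra1-AA replicate 2 (edgeR, adjusted p = 0.107, 0.12, 0.125 and 0.0552), and with library totals alone or a fit of WT and tra1D only (edgeR, adjusted p = 0.135 and 0.0552). The fluoride export channel gene fex2, between them, had 6.94 to 7.50 CPM in WT, 6.68 to 9.56 CPM in tra1D and 4.58 to 5.71 CPM in tra1-AA and passed in neither (edgeR, adjusted p = 0.173 in tra1-AA and 0.616 in tra1D).

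In clone SPBPB21E7, metabolic enzyme genes fell beside the asparaginase gene. eno102, which encodes enolase, a glycolytic enzyme, had 13.8, 12.1 and 15.4 CPM in WT, 7.55, 1.94 and 6.54 CPM in tra1D, and 1.29, 2.52 and 1.65 CPM in tra1-AA. It fell 7.45-fold in tra1-AA (log2 fold change -2.90, SE 0.41, edgeR, adjusted p = 0.000759) and 2.62-fold in tra1D (-1.39, SE 0.34, edgeR, adjusted p = 0.0232), and the latter call was lost without WT replicate 1 (edgeR, adjusted p = 0.0749). cmt2, encoding a catechol O-methyltransferase, had 6.94, 5.32 and 10.9 CPM in WT, 3.20, 1.42 and 2.51 CPM in tra1D, and 2.15, 0.699 and 0.752 CPM in tra1-AA. WT replicate 3 was the highest library and no mutant library overlapped WT.

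cmt2 fell 6.28-fold in tra1-AA (edgeR, adjusted p = 0.0025) and 3.24-fold in tra1D (edgeR, adjusted p = 0.0178). The log2 fold change of cmt2 in tra1-AA, -2.65, was -3.37 without tra1-AA replicate 1, and its call in tra1D was lost without tra1D replicate 2 or 3 (edgeR, adjusted p = 0.0814 and 0.0543). aes1, of the phenazine biosynthesis family, had 47.5, 57.6 and 35.2 CPM in WT, 37.5, 23.0 and 32.2 CPM in tra1D, and 28.9, 25.9 and 10.7 CPM in tra1-AA. It fell 2.14-fold in tra1-AA (edgeR, adjusted p = 0.0277) but not in the fits without WT replicate 1, WT replicate 2 or tra1-AA replicate 2 (edgeR, adjusted p = 0.0779, 0.073 and 0.0508), and its tra1D libraries overlapped WT (-0.61, edgeR, adjusted p = 0.203). SPBPB21E7.11, an uncharacterised gene, and the tandem gene SPBPB10D8.04c had at most 2.40 CPM in any library and passed in neither mutant. SPBPB21E7.11 also shares 601 bases with SPBPB21E7.10 on the opposite strand.

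**Figure D3:**
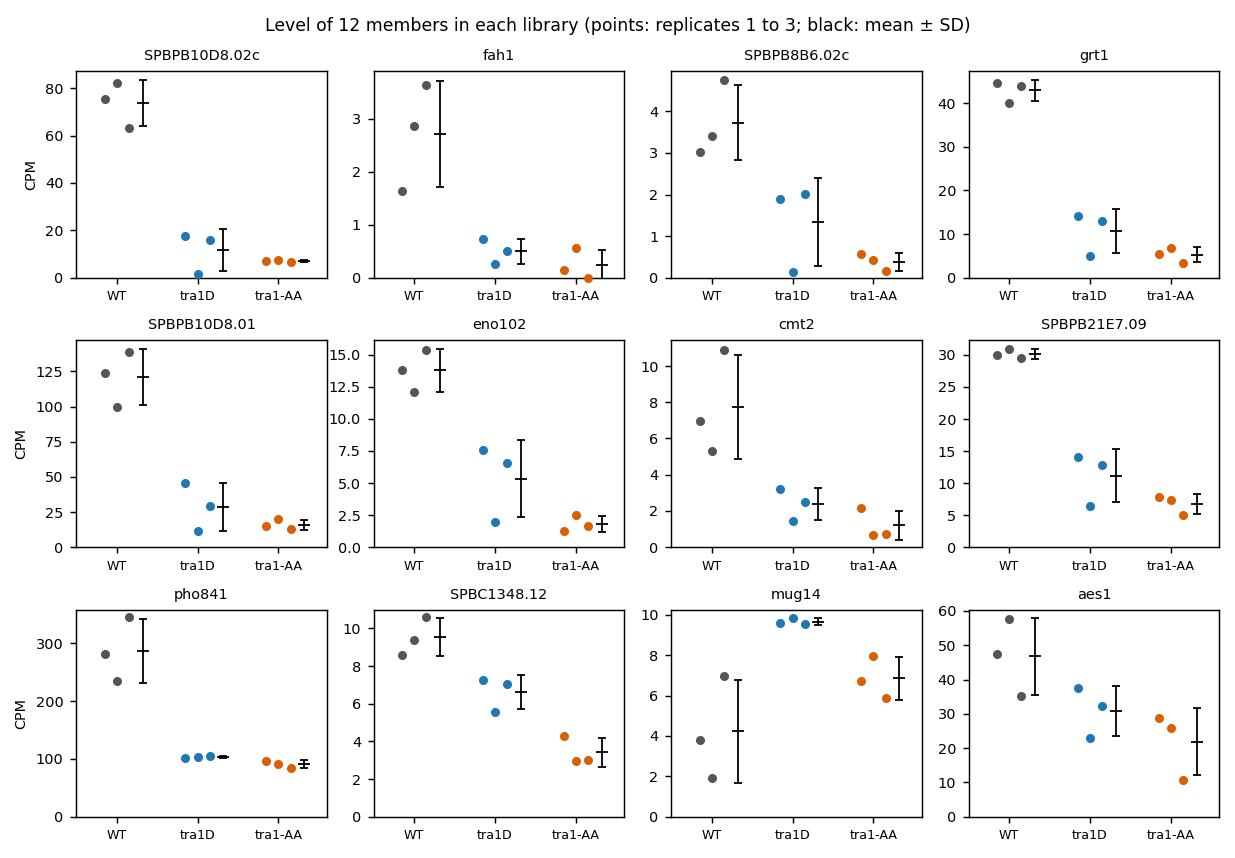
CPM of the 12 called members with the largest change, in each of the 9 libraries, with replicates 1 to 3 from left to right and the mean and SD in black. WT lies above every tra1-AA library in all panels but that of mug14.

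Further in, the phosphate transporter gene pho841 (SPBC1683.01) changed most. It had 282, 234 and 345 CPM in WT, 102, 104 and 105 CPM in tra1D, and 97.2, 92.0 and 84.6 CPM in tra1-AA. The WT libraries varied and the tra1D libraries were almost level. pho841 fell 3.14-fold in tra1-AA (log2 fold change -1.65, SE 0.12, edgeR, adjusted p = 4.48e-06) and 2.77-fold in tra1D (-1.47, SE 0.12, edgeR, adjusted p = 1.24e-05). The amino acid permease gene aat1 (SPBC359.03c) fell by a factor of 1.72 in tra1-AA and by a factor of 1.66 in tra1D (edgeR, adjusted p = 0.00066 and 0.00117), from 80.4 to 98.2 CPM in WT to 46.8 to 59.4 CPM over the 6 mutant libraries.

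Other transporter genes of the inner clones moved less. abc3, encoding an ABC transporter of the multidrug resistance family, fell 1.56-fold in tra1-AA (65.7 ± 4.63 CPM in WT, 42.0 ± 4.74 CPM in tra1-AA, SD, n = 3; edgeR, adjusted p = 0.0191) with -0.44 on the log2 scale for tra1D (edgeR, adjusted p = 0.0996; 0.0489 without tra1D replicate 3). abc3 no longer passed when WT replicate 1 or tra1-AA replicate 3 was left out (edgeR, adjusted p = 0.0556 and 0.0653). The Fe(2+) transporter gene pcl1, the transporter genes amf1 and thi7, the nicotinic acid transporter gene SPBC1683.12 and the permease gene SPBC359.01 did not pass in either. Their log2 fold changes ran from -0.35 (SPBC359.01) to 0.51 (SPBC1683.12) in tra1-AA and from -0.29 (thi7) to 0.43 (SPBC1683.12) in tra1D. With the replicate number as a block over all libraries, thi7 passed in both mutants (-0.29 in each, edgeR, adjusted p = 0.0362 in tra1-AA and 0.0464 in tra1D) and SPBC1683.12 rose in tra1-AA (0.51, edgeR, adjusted p = 0.026). In a paired fit of WT and tra1-AA alone, thi7 (edgeR, adjusted p = 0.00729), SPBC359.01 (edgeR, adjusted p = 0.0418) and SPBC1683.12 (edgeR, adjusted p = 0.0282) passed with the same signs. Leaving out 1 library also brought calls, for thi7 without WT replicate 3 (-0.38 in both mutants, edgeR, adjusted p = 0.0349 and 0.0415) or tra1-AA replicate 1, for SPBC359.01 without tra1-AA replicate 1, and for SPBC1683.12 without WT replicate 2 or tra1-AA replicate 3 (edgeR, adjusted p from 0.0278 to 0.0411 in tra1-AA).

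Of the enzymes of the inner clones, SPBC1683.04, a glycosyl hydrolase of family 3, fell 1.41-fold in tra1-AA (94.0 ± 6.04 CPM in WT, 66.7 ± 1.32 CPM in tra1-AA, SD, n = 3; edgeR, adjusted p = 0.00944), with -0.31 on the log2 scale for tra1D (edgeR, adjusted p = 0.0825). alr2, encoding alanine racemase, icl1, annotated as isocitrate lyase, urh1, encoding uridine ribohydrolase, and the deaminase gene SPBC1683.02 passed in neither. The replicates of alr2 lay far apart, at 5.03 to 20 CPM in tra1D and 6.85 to 17.6 CPM in tra1-AA. urh1 stood at 105, 116 and 26.9 CPM in WT, so a single WT library, replicate 3, was far below the others.

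mug14, which encodes a member of the adducin family, was the only member that rose in a comparison with WT. It had 3.79, 1.91 and 6.97 CPM in WT, 9.59, 9.84 and 9.56 CPM in tra1D, and 6.73, 7.97 and 5.86 CPM in tra1-AA. The tra1D libraries were level and above all WT libraries, while tra1-AA overlapped WT. The rise in tra1D was 1.22 on the log2 scale (SE 0.32, edgeR, adjusted p = 0.0308). It passed no longer without WT replicate 1, WT replicate 2, tra1D replicate 1, tra1D replicate 2 or tra1D replicate 3 (edgeR, adjusted p = 0.12, 0.0656, 0.0713, 0.091 and 0.0774), or in a fit of WT and tra1D only (edgeR, adjusted p = 0.051). Its log2 fold change in tra1-AA was 0.73 (edgeR, adjusted p = 0.166) and 1.25 without WT replicate 3 (edgeR, adjusted p = 0.0157).

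Levels per length set the members apart in WT. Per kilobase of annotated transcript, pcl1 (138 CPM) and pho841 (126 CPM) were the highest of the tested members in WT, followed by thi7 (112 CPM). In the middle clones the highest were SPBPB8B6.05c (54.9 CPM per kilobase), SPBPB10D8.01 (51.7) and aes1 (39.6), and urea transporter gene SPBPB8B6.02c (1.74) and fah1 (1.65) were among the lowest. The full transcript length was used, whether or not its sequence is unique. The places of SPBPB8B6.05c, fex2 and SPBPB21E7.09 among the members, with 26.7%, 25.8% and 41.7% unique 50-base words, are therefore uncertain. In tra1-AA SPBPB10D8.01 stood at 6.77 CPM per kilobase and pho841 at 40.1, while pcl1 stood at 122.

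The genes of the middle clones moved together from library to library in tra1D. The median log2 ratio of their 13 tested genes to the WT mean (CPM plus 0.5) was -0.82, -2.04 and -1.01 in tra1D replicates 1 to 3 and -1.87, -1.95 and -2.63 in tra1-AA. Among these 13 genes, fah1 and SPBPB8B6.02c passed the filter only because of their WT libraries. The summed level of these 13 genes was 419, 408 and 437 CPM in WT, 199, 110 and 183 CPM in tra1D, and 128, 133 and 111 CPM in tra1-AA. tra1D replicate 2 was thus within the range of tra1-AA for the median and level with its lowest library for the sum. In 10 of the 13 genes tra1D replicate 2 was the lowest of the tra1D libraries and in 10 replicate 1 was the highest, beside 30.9% and 33.3% of all tested genes. The 15 genes of the inner clones had medians nearer 0, of -0.15, -0.19 and -0.14 for the tra1D libraries and of -0.10, -0.21 and -0.33 for tra1-AA. tra1D replicate 2 had 7295107 counts in all, the most of the tra1D libraries, and 2 counts of tra1, as many as replicate 3.

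**Figure D4:**
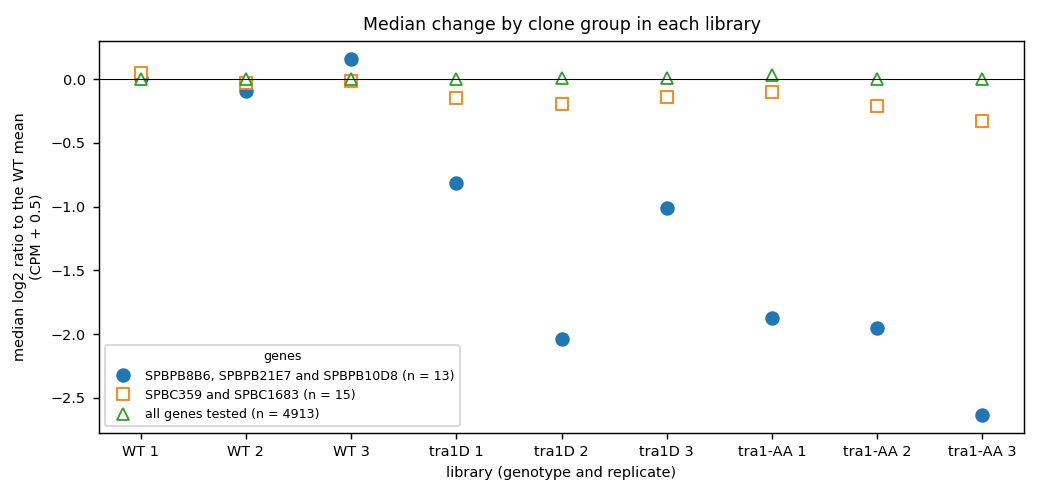
Median log2 ratio to the WT mean in each library for 13 tested genes of SPBPB8B6, SPBPB21E7 and SPBPB10D8, 15 of SPBC359 and SPBC1683, and all 4913 tested genes. The middle clones lie at -0.82 to -2.04 in tra1D and -1.87 to -2.63 in tra1-AA, and all genes lie at about 0 in every library.

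The direct comparison of tra1-AA with tra1D asks whether the allele and the deletion differ. None of 29 members passed (edgeR, adjusted p under 0.05; 0 by DESeq2 as well), beside 0.0204% of all genes called lower and the same share called higher. At an unadjusted p under 0.05, 6 members were lower in tra1-AA and none higher, beside 1.93% and 1.87% of all genes. The 6, named after their values were seen, were SPBC1348.12, eno102, fex2, grt1, SPBPB21E7.09 and SPBPB10D8.01, with log2 fold changes from -1.51 (eno102) to -0.60 (fex2). The groups did not overlap for 4 members lower in tra1-AA (SPBC1348.12, fex2, mug14 and pho841), beside 4.4% of all genes. The median log2 fold change of the members was -0.21. Without tra1D replicate 2, eno102 (-1.94) and SPBPB10D8.02c (-1.27) were called lower in tra1-AA (edgeR, adjusted p = 0.0461 and 0.0247), so for these members the call turned on 1 library. With 1 library left out, their log2 fold changes ran from -1.94 to -1.14 and from -1.27 to -0.23. The samples of tra1-AA differ from the others also in the re-analysis mark, and mark and genotype cannot be told apart.

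The ends of chromosome I and the opposite end of chromosome II were set beside this stretch. At the chromosome I end with the SPAC212, SPAC977 and SPAC1F8 clones, 7 of 15 tested genes fell in tra1-AA and 5 in tra1D, with medians of -0.86 and -0.66 and none that rose. At the chromosome I end with SPAC186, SPAC750, SPAC869 and SPAC1039, 7 of 21 fell and 1 rose in tra1-AA, and 6 fell and 2 rose in tra1D, with medians of -0.11 and -0.06. At the opposite end of chromosome II, with clone SPBPB2B2, 5 of 11 fell and 2 rose in tra1-AA, and 1 fell and 3 rose in tra1D. The share of members that fell, 48.3% in tra1-AA and 34.5% in tra1D, was near that of the first chromosome I end, 46.7% and 33.3%, and no test of a difference between ends was made. At the SPAC186 end the shares that fell were 33.3% and 28.6%, and at the SPBPB2B2 end 45.5% and 9.09%. Of all tested genes 7.96% fell and 7.94% rose in tra1-AA, and 6.35% fell and 5.17% rose in tra1D.

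By annotation order alone, the 50 outermost genes of this end held 33 that were tested, of which 16 fell and none rose in tra1-AA, and 11 fell and 1 rose in tra1D. Most of these genes are the members already counted, so the figures are not a separate result. At the first end of chromosome I in the assembly, 13 of 31 fell in tra1-AA and 11 in tra1D, with none that rose, and at its last end 10 of 32 fell and 1 rose in tra1-AA and 7 fell and 2 rose in tra1D. At the other end of chromosome II, 8 of 38 fell and 3 rose in tra1-AA, and 3 fell and 4 rose in tra1D. At the first and last ends of chromosome III, 2 and 6 of 48 tested genes fell in tra1-AA and 2 and 4 rose, and in tra1D 2 and 4 fell and 2 and 5 rose. The shares that fell in tra1-AA were 41.9% and 31.2% at the ends of chromosome I and 21.1% at the other end of II. At chromosome III they were 4.17% and 12.5%, beside 7.96% of all tested genes. In tra1D the shares were 35.5%, 21.9% and 7.89%, and at chromosome III 4.17% and 8.33%, beside 6.35% of all. Rises made up 7.94% and 5.17% of all tested genes. The genes listed as silencing factors act on heterochromatin or at chromosome ends, and not all of them build or hold it. Of 34 listed and tested, among them clr4, which encodes the histone H3 methyltransferase of heterochromatin, 1 fell in tra1-AA, set2 (log2 fold change -0.28, edgeR, adjusted p = 0.00738), and the same gene fell in tra1D (-0.21, edgeR, adjusted p = 0.0322). None rose in either mutant. The share that fell was 2.94% in each mutant, beside 7.96% and 6.35% of all tested genes.

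**Figure D5:**
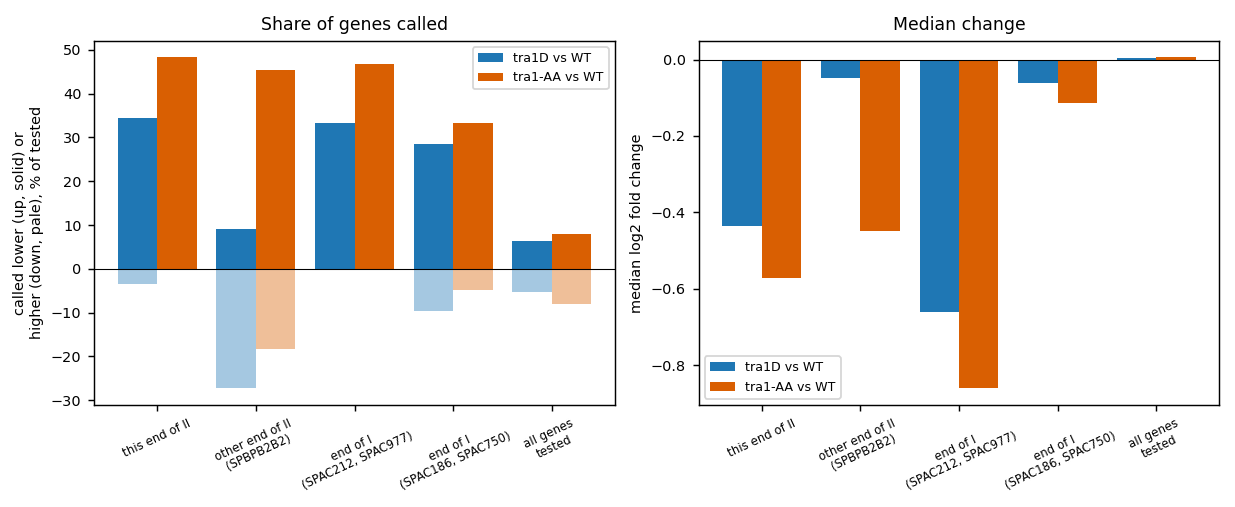
Share of tested genes called lower (solid, above 0) or higher (pale, below 0) in each mutant, and median log2 fold change, for the members at this end of chromosome II, for clone lists of 3 other ends and for all tested genes. The members and the chromosome I end with SPAC212 and SPAC977 have similar shares called lower, and falls without rises in tra1-AA at both.

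The authors' deposited table for tra1-AA gives 13 of 35 members as lower and none as higher at an adjusted p under 0.05, beside 7.61% and 4.75% of all genes in it, and all but aes1 of the members called here are among the 13. For tra1D the authors' deposited table gives 10 of 33 members as lower and 1, mug14, as higher, beside 7.22% and 4.06% of all genes. In that authors' deposited table the log2 fold change of SPBPB10D8.02c is -0.37 (the authors' adjusted p = 0.0737) and that of aes1 is -0.48 (the authors' adjusted p = 0.0297). The log2 fold change in the authors' deposited tables was closer to 0 than that of edgeR for 26 of the 29 tested members in tra1-AA and 27 of 29 in tra1D.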

How the data were processed

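RNA-seq counts per gene were taken from 1 table of whole-number counts that the authors deposited for 9 libraries, 3 genotypes with 3 replicates. Per the labels, libraries were made from poly(A) RNA with a stranded kit and read as 50-base single reads. The submitters' processing notes name bcl2fastq, HISAT2 2.1.0, HTSeq 0.9.1 and DESeq2 1.18.1. The genome build, annotation, strand setting and treatment of multiply aligned reads were not given in the sources used here. The authors' deposited comparison tables hold a mean normalised signal per gene, a log2 fold change with its standard error, a Wald score, and p-values with adjusted p-values, and only the log2 values and adjusted p-values were used.

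Counts were tested with edgeR 4.0.16 in R 4.3.3 (TMM scaling, filterByExpr with a minimum count of 10 and total of 15, quasi-likelihood test) in a single fit of all 9 libraries. The filter left 4913 of 5129 genes, 66 genes had no count, and 150 with counts were set aside. The Benjamini-Hochberg threshold was 0.05 over all tested genes. The common biological coefficient of variation was 0.0932. Replicates differed by more than sampling noise (chi-square per degree of freedom 8.412 to 28.78). Scripts were tested on simulated data. The labels give the genotypes the same replicate numbers. Correlations of deviations from the group means between same-numbered libraries were 0.109 to 0.357 for WT and tra1-AA (other numbers -0.351 to 0.0849). These correlations are few and not independent of each other, so they do not establish that the numbers pair these groups. The main fit did not use the replicate number, and fits paired by it are given as alternatives. The same correlations were -0.116 to -0.0103 for WT and tra1D and -0.203 to -0.0171 for the mutants, which were not taken as paired.

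Identifiers were matched by locus tag or synonym to the RefSeq annotation, 5114 of 5129 and all 46 members. That assembly gave gene order, promoter windows and the share of unique 50-base words, and no coordinates are printed because it may not be the build the authors used. Every member called in a comparison is named, with values in each library for the 12 with the largest change against WT. The members, the clone groups and the gene lists were chosen with earlier results of these data known. SPBPB7E8 was planned as a clone of the other end of chromosome II and was left out because the annotation places it elsewhere. Intervals on ratios of summed counts are exact and cover counting error only. Alternatives were RLE size factors, library totals alone, no filter, DESeq2 1.42.0, a fit of only the 2 groups compared, the replicate number as a block, and each library left out.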

Additional observations from a re-analysis of the deposited data

How the results depend on the processing

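The count of members that fell was 14 in tra1-AA and 10 in tra1D, and ranged from 12 to 16 and from 7 to 10 when 1 library was left out. The count that rose was 0 in tra1-AA and 1 in tra1D (0 to 1 in both when 1 library was left out), and in tra1D 0 with only the 2 groups compared. Between the mutants 0 members were lower, and 0 to 2 with 1 library left out. Over all genes, 781 were called in tra1-AA (364 to 845 with 1 library left out), 566 in tra1D (278 to 655) and 2 between the mutants (2 to 5, and 4 by DESeq2). The lowest of these counts came without tra1-AA replicate 2 and without tra1D replicate 2, with 398 without WT replicate 1 in tra1-AA, and 281 without WT replicate 1 and 323 without tra1D replicate 3 in tra1D. With library totals alone, 64.9% of the calls in tra1D were higher, against 44.9%, and the median of all genes was 0.08.

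With the replicate block over all libraries, 15 members fell and 1 rose in tra1-AA, 11 fell and 1 rose in tra1D, and 718, 514 and 3 genes were called. The added calls were those of thi7 in both mutants and SPBC1683.12 in tra1-AA. A replicate block in a fit of WT and tra1-AA alone, chosen after seeing the data, gave 16 members that fell, 1 that rose and 903 genes. It kept all 14 calls and added thi7, SPBC359.01 and SPBC1683.12.

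The log2 fold change of aat1 between the mutants, -0.05 and not called, ranged from -0.115 to 0.057 with 1 library left out, and was above 0 without tra1D replicate 1 and without tra1-AA replicate 3 (0.001). The median of the members in tra1-AA was -0.47 without WT replicate 1 and -0.69 without WT replicate 2, and between the mutants -0.37 without tra1D replicate 2. The cause was not tested. Low counts limit the precision for fah1 and SPBPB8B6.02c, and of the 17 untested members 14 have under 20% unique 50-base words.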
